A study of Mus musculus with 2 samples.

Results

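The collagen genes of mouse breast tumour tissue were compared between 2 libraries. One is from tissue after intraperitoneal injection of an inhibitor of PD-1, a checkpoint receptor that restrains T cells, and the other is from tissue after that injection together with acupuncture. Members were the genes whose symbol is Col, a number, a and a number, whose counts in both libraries summed to 20 or more. Of 35602 gene symbols, 44 had such a name and 41 reached the minimum, namely 11 fibrillar, 6 basement membrane, 7 FACIT (fibril-associated collagens with interrupted helices) and 17 other genes. The labels give the tissue, the injection and the acupuncture. The sources used here do not state the strain, age, tumour model, dose, time of sampling, acupuncture points or number of animals behind each library, and neither group was untreated. Each group was 1 library, so no difference below has a replicate check, no p-value was computed, and every interval covers counting error only. Paired values give the library without acupuncture first, and a ratio divides the library with acupuncture by it. In bulk tissue, fewer cells of a type and less RNA per cell cannot be told apart.

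Collagens are secreted or membrane proteins in which chains with glycine at regular positions wind around each other into a helix. Types I, III and V, made mainly by fibroblasts, form the banded fibrils that give tissue its tensile strength. Type IV forms the sheet-like network of basement membranes under epithelium and around vessels, FACITs sit on the surface of fibrils, and type VI forms beaded filaments around cells. In mammary tumours, dense and aligned type I collagen is a known feature of the stroma and stiffens it.

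Collagen reads made up 1.18% of the library without acupuncture (1247133 counts) and 1.42% of the library with acupuncture (860326 counts). Levels are given in CPM, counts per 1000000 of a library size adjusted by TMM factors, which correct for differences in composition. The summed CPM was 1.119-fold higher with acupuncture (95% counting interval 1.116 to 1.122). Without Col3a1 the sum of the other 40 genes was 8944 CPM without acupuncture and 8523 CPM with it, 1.049-fold lower (1.046 to 1.053). That log2 ratio of -0.07 is smaller than the 0.10 by which total-count scaling raises the median of all genes, so its direction depends on the scaling. The 3 chains of types I and III took 53.6% of collagen counts without acupuncture and 64.8% with acupuncture, a share that does not depend on the scaling between libraries. The share of the fibrillar class went from 62.8% to 72.6%, but that of its 10 genes other than Col3a1 went from 36.0% to 34.9%. Col3a1 alone went from 26.8% to 37.7%, while Col1a2 went from 12.6% to 14.35% and Col1a1 from 14.2% to 12.8%. The share of the basement membrane class went from 9.04% to 6.32%, that of the FACITs from 5.49% to 4.69% and that of the other types from 22.7% to 16.4%.

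**Figure D1:**
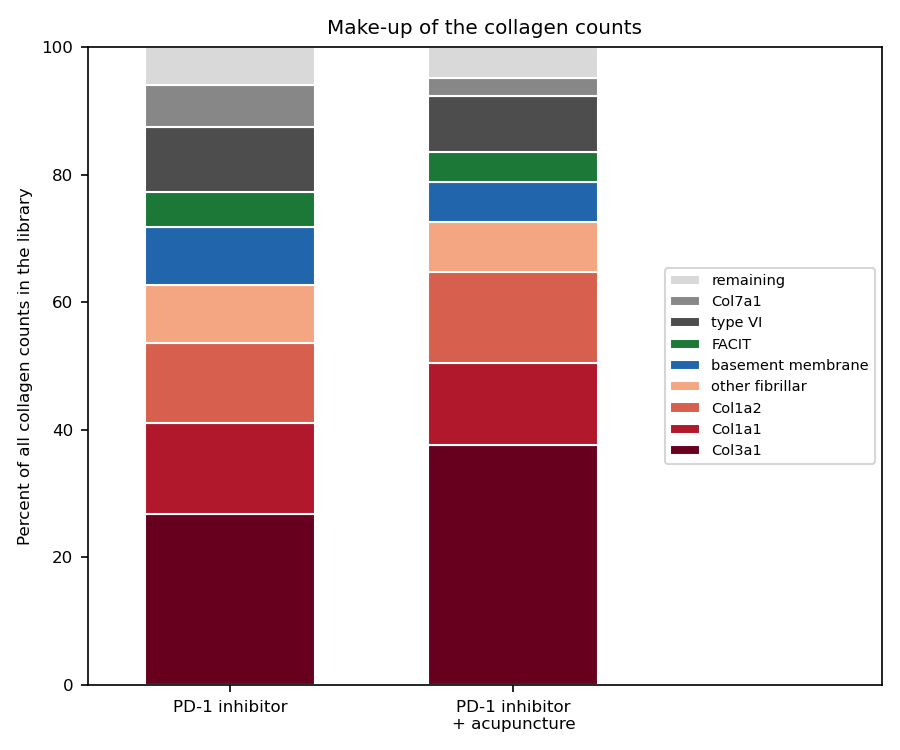
Share of all collagen counts (vertical axis, percent) taken by single genes and classes in each of the 2 libraries, stacked to 100. The fibrillar genes, drawn in reds from the bottom, reach 62.8% without acupuncture and 72.6% with acupuncture, and Col3a1 goes from 26.8% to 37.7%.

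With no replicates, genes were listed by size: those with a CPM ratio of at least 2-fold in either direction and a counting interval that excluded 1. By that rule 4 of 41 collagen genes were higher with acupuncture (9.76%) and 5 were lower (12.2%), against 9.21% higher and 4.90% lower among all 18687 genes that reached the same minimum. The share higher is near the background. The same all-gene shares, 9.21% higher and 4.90% lower, are the background for the count of listed genes in every class and list below. Of the 5 lower genes, 4 (Col13a1, Col25a1, Col9a1 and Col9a2) had at most 226 counts in either library and under 20 with acupuncture. Those 4 reached the minimum through the library in which they were high. The remaining gene, Col7a1, lay at the limit and was the only lower gene with at least 20 counts in both libraries. Of the 4 higher genes, Col26a1 had under 20 counts in both. The share lower is therefore not read as a result about collagen genes. The median log2 ratio of the 41 genes was -0.19, beside 0.00 for all tested genes, whose interquartile range was -0.30 to 0.33. Of the members, 15 lay within that range, 2 lay above the 95th percentile of all genes (1.54) and 5 below the 5th (-0.98). Of the 41 members, 34 had at least 20 counts in both libraries, 5 in 1 library only and 2 in neither, so a low member could enter through the library in which it was high. The median log2 ratio of the 34 was -0.11. Just inside the minimum stood Col26a1 with 4 and 17 counts and Col4a3 with 12 and 13, and just outside stood Col10a1 with 13 and 5 and Col22a1 with 11 and 6.

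**Figure D2:**
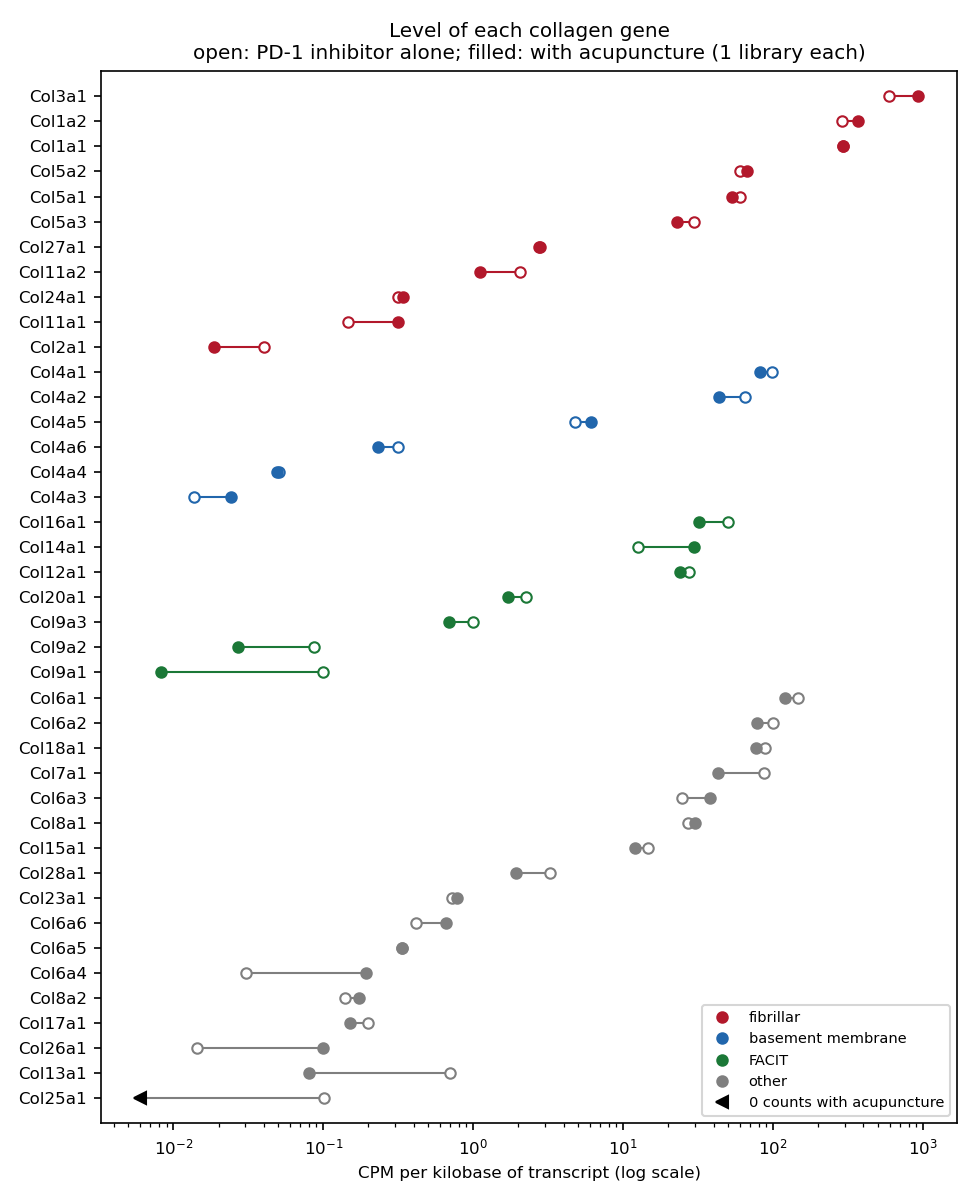
Level of each collagen gene in CPM per kilobase of transcript (horizontal log axis), by class, with an open circle for PD-1 inhibitor only and a filled circle for acupuncture. Levels with acupuncture span from 926 for Col3a1 to 0.00829 for Col9a1, and long connecting lines are found mostly among low genes. The arrow marks Col25a1, with 0 counts with acupuncture.

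The libraries held 105728292 and 60752043 counts in all. The epithelial markers of the labelled tissue were present in both, all 11 of 11 measured, with 4375 and 3008 CPM summed and Krt8 and Krt18 the most abundant. None of these was listed as higher and 3 as lower, with a median log2 ratio of -0.56. Fibroblast markers, led by Postn and Dcn, had 2 of 10 higher and no gene lower, with 1252 and 1686 CPM and a median of 0.49. Endothelial markers, led by Pecam1 and Cdh5, had 0 of 8 listed either way, with 295 and 215 CPM and a median of -0.59. Smooth muscle and pericyte markers, led by Acta2 and Tagln, had 2 of 8 higher, with 286 and 341 CPM. Bulk counts do not show where in the sample cells of a type lay. Markers of some other tissues stood higher with acupuncture. These were skeletal muscle (8 of 8 higher, 221 and 2092 CPM, led by Myh4 and Acta1), adipocytes (7 of 8, 492 and 1846 CPM, led by Fabp4 and Car3) and lymph node stroma (6 of 6, 1.67 and 189.5 CPM, led by Glycam1 and Ccl21a). Leukocyte markers, led by Laptm5 and Coro1a, had 0 of 5 listed, with 615 and 674 CPM. The part of these lists in the collagen results was not tested. Setting the epithelial list to a median of 0 raises the median of all genes by 0.56, and 14 of the 41 collagen genes then change sign.

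The fibrillar class had 1 of 11 genes listed as higher and 0 as lower, and its sum was 1.29-fold higher with acupuncture (1.29 to 1.30), at a log2 ratio of 0.37 that was 0.12 without Col3a1. Col3a1, whose chain forms the homotrimeric type III collagen of soft and healing tissue, was the highest collagen gene per length in both libraries. It had 334018 counts (588 CPM per kilobase) without acupuncture and 324059 counts (926 CPM per kilobase) with acupuncture. Its CPM was 1.57-fold higher with acupuncture (1.57 to 1.58), short of 2-fold. Col1a2, the alpha-2 chain of type I collagen, had 157202 and 123435 counts, or 288 and 367 CPM per kilobase, and was 1.27-fold higher (1.26 to 1.28). Col1a1, the alpha-1 chain that is the major chain of the same molecule, had 177316 and 109839 counts, or 293 and 294 CPM per kilobase, at a ratio of 1.01 (0.998 to 1.01). Col1a1 stood above Col1a2 per length without acupuncture and below it with acupuncture. Both stayed behind Col3a1 in both libraries.

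The start regions of Col3a1 and Col1a2, abundant chains with ratios of 1.57 and 1.27, are shown because they differ in base composition. They were taken from RefSeq on GRCm38.p6, from 250 bases before to 50 bases after the annotated start, a build other than the GRCm39 named in the submitters' processing notes. Capitals mark the CCAAT box, named by its letters, the GC box, searched as GGGCGG, and the TATA box, searched as TATAAA. Both strands were searched, and no matches overlapped. Col3a1 lies at chr1:45311288-45311587 (plus strand) and Col1a2 at chr6:4505368-4505667 (plus strand).
Col3a1: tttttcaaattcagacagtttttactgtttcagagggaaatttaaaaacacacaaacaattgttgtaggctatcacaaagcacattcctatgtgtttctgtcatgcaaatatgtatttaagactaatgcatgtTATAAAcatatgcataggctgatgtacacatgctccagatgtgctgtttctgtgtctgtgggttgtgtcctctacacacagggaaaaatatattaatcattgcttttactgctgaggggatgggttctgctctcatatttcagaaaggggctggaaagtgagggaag
Col1a2: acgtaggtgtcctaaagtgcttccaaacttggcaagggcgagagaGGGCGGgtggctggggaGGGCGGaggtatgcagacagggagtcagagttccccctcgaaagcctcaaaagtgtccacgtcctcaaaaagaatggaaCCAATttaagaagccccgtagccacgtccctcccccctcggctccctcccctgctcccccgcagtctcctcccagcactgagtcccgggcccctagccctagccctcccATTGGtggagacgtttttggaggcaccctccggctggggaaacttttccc
The Col3a1 window had 37.7% G and C, with 1 TATA box match and no match to the other motifs. The Col1a2 window had 61.0% G and C, with 2 matches to the CCAAT box, 2 to the GC box and no TATA box match. Over all 32851 start windows, 37.4% held a CCAAT box match, 35.7% a GC box match and 13.6% a TATA box match. Of 36 windows of 33 collagen genes, 13 held the CCAAT box, 23 the GC box and 4 the TATA box. A match is a description of letters only.

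Type V collagen, which sits inside type I fibrils and sets their diameter, had chains with ratios above and below 1. Col5a2 had 40556 and 27910 counts (397 and 444 CPM), a ratio of 1.12 (1.10 to 1.13). Col5a1 had 51542 and 28214 counts (505 and 448 CPM), a ratio of 0.888 (0.875 to 0.901). Col5a3, a chain of more restricted expression, had 18494 and 8783 counts (181 and 140 CPM), a ratio of 0.771 (0.751 to 0.790). None of the 3 chains reached 2-fold.

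The remaining fibrillar genes were low, and their ratios lay above and below 1. Col11a1, a cartilage collagen chain that activated fibroblasts of tumours also express, had 115 and 152 counts, or 1.13 and 2.42 CPM, and was listed as higher at 2.15-fold (1.67 to 2.76). Its partner Col11a2 had 1125 and 377 counts, or 11.02 and 5.99 CPM, and was 1.84-fold lower (1.64 to 2.07). Col27a1, a fibrillar collagen of cartilage, had 2154 and 1308 counts at a ratio of 0.985 (0.919 to 1.06), and Col24a1 had 228 and 152 at a ratio of 1.08 (0.875 to 1.33). Both intervals include 1. Col2a1, the main fibrillar collagen of cartilage, had 21 and 6 counts, and its ratio of 0.464 had an interval of 0.153 to 1.19. Of 10 cartilage and bone markers, 4 reached the count minimum, none was listed as higher and 1 as lower, with 71.0 and 43.7 CPM summed, nearly all of it from Sox9 and Ibsp. Cartilage matrix genes of that list differed in level. Acan had 2 counts in each library, Matn3 4 in each, Matn1 0 and 5 and Hapln1 0 and 4. Comp had 84 and 85 counts, a ratio of 1.64 (1.2 to 2.25), and Chad had 54 and 47, a ratio of 1.41 (0.935 to 2.13).

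**Figure D3:**
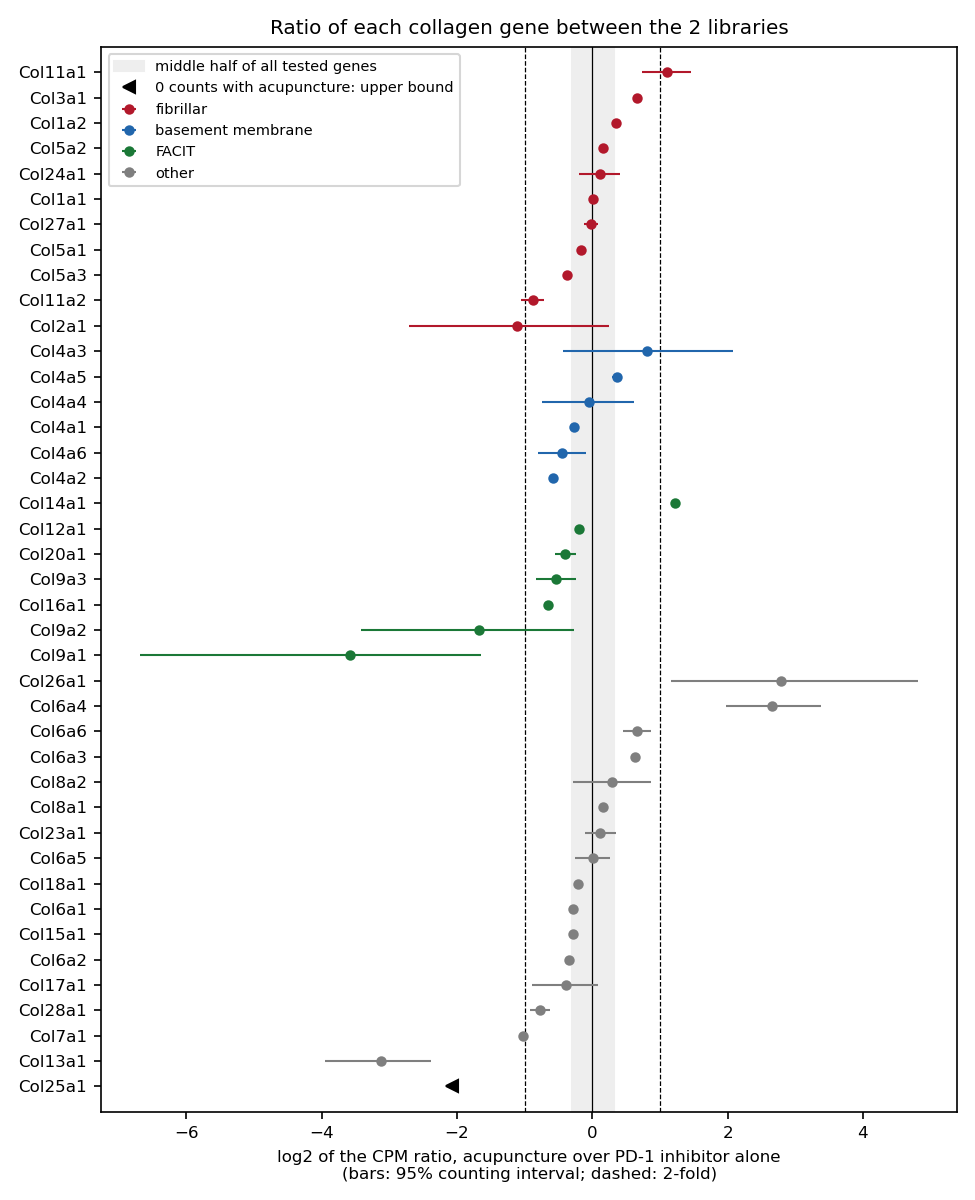
Log2 of the CPM ratio of each collagen gene, acupuncture over PD-1 inhibitor only (horizontal axis), with 95% counting intervals, by class. Dashed lines mark 2-fold and the grey band is the interquartile range of all tested genes, from -0.30 to 0.33. Abundant genes have intervals narrower than their symbols, and points past 2-fold are mostly low genes with wide intervals. The arrow for Col25a1 marks the upper end of its counting interval, 4.21-fold lower.

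Ratios between chains within a library do not depend on how the libraries are scaled, and their quotient between libraries does not depend on transcript length. Col1a1 had 1.13 counts per count of Col1a2 without acupuncture and 0.890 with acupuncture, a quotient of 0.789 (0.781 to 0.797). Col1a1 per count of Col3a1 went from 0.531 to 0.339, a quotient of 0.638 (0.633 to 0.644). The largest shift between abundant chains of the same collagen was in type VI, where Col6a3 per count of Col6a1 went from 0.417 to 0.790, a quotient of 1.89 (1.85 to 1.93). Col6a2 per count of Col6a1 was nearly the same, at 0.656 and 0.628, a quotient of 0.957 (0.936 to 0.978). Among lower genes, Col11a1 per count of Col11a2 was 0.102 and 0.403, a quotient of 3.94 (3.01 to 5.16), and Col4a6 per count of Col4a5 was 0.0673 and 0.0385, a quotient of 0.571 (0.447 to 0.730). Col5a1 per count of Col5a2 was 1.27 and 1.01, a quotient of 0.795 (0.779 to 0.812). These intervals reflect counting only. How far such ratios vary between animals cannot be read from 1 library per group.

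**Figure D4:**
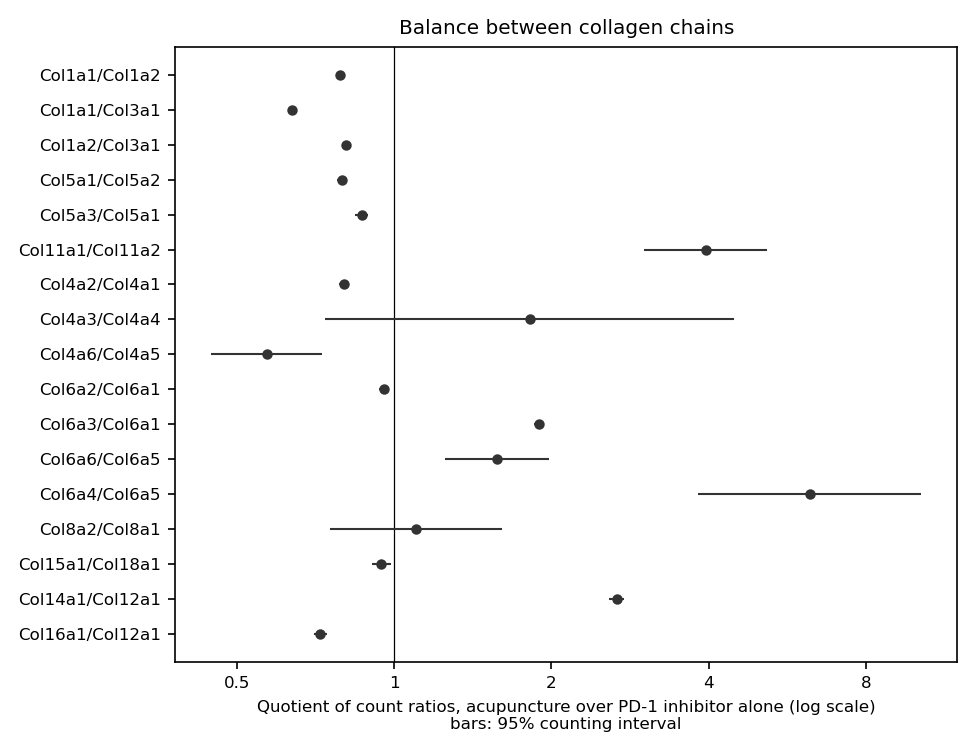
Quotient of the count ratio of gene pairs, acupuncture over PD-1 inhibitor only (horizontal log axis), with 95% counting intervals. A value of 1 means the same balance in both libraries. Col6a2/Col6a1 sits at 0.957, Col6a3/Col6a1 at 1.89 and Col14a1/Col12a1 at 2.67, while Col4a3/Col4a4 and Col8a2/Col8a1 have intervals that include 1.

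The summed basement membrane class was 1.28-fold lower with acupuncture (1.27 to 1.29), though higher, at a log2 ratio of 0.21 in place of -0.35, with the epithelial list set to 0. Col4a1 and Col4a2 encode the chains of the common type IV network found in nearly every basement membrane. Col4a1 had 66313 and 33994 counts (98.2 and 81.7 CPM per kilobase), 1.20-fold lower (1.19 to 1.22), and Col4a2 had 42980 and 17714 counts (65.3 and 43.7 CPM per kilobase), a ratio of 0.669 (0.657 to 0.6805). Col4a2 per count of Col4a1 went from 0.648 to 0.521, a quotient of 0.804 (0.787 to 0.822). These genes lie head to head and are known to be transcribed in opposite directions from a shared promoter, so their start windows are shown together. In RefSeq on GRCm38.p6, Col4a1 lies at chr8:11312777-11313076 (minus strand) and Col4a2 at chr8:11312555-11312854 (plus strand). Both sequences read 5′ to 3′ on the strand of their own gene and share 78 bases, and capitals again mark CCAAT and GC box matches on either strand.
Col4a1: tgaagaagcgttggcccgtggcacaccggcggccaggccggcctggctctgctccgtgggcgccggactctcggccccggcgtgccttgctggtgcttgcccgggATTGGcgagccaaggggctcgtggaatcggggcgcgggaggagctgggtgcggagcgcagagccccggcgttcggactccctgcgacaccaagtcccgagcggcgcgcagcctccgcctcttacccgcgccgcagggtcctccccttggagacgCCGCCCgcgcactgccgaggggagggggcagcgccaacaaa
Col4a2: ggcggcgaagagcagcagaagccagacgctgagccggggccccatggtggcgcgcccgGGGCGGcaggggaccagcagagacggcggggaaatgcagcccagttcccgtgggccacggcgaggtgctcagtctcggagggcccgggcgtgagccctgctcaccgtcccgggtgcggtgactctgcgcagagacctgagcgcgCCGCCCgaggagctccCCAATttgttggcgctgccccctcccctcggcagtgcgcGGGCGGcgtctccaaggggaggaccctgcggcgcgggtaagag
The windows had 74.0% and 73.7% G and C with 1 CCAAT box match each, 1 and 3 GC box matches and no TATA box match. The GC box match of Col4a1 lies in the shared bases and is the same site as the last of the 3 in Col4a2. The annotated exons of these genes also share 22 bases on opposite strands, 0.333% and 0.341% of their exon lengths, where reads counted without strand cannot be told apart.

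The minor type IV chains are those of kidney, lung, testis and smooth muscle basement membranes. Col4a5 had 3178 and 2523 counts, at 31.1 and 40.1 CPM, a ratio of 1.29 (1.22 to 1.36), while Col4a6 had 214 and 97 counts at a ratio of 0.735 (0.573 to 0.939). Col4a4 had 52 and 31 counts and Col4a3 had 12 and 13, with ratios of 0.967 (0.599 to 1.54) and 1.76 (0.739 to 4.22) whose intervals include 1. No type IV gene was listed as higher or lower. Of 15 laminins, nidogens and heparan sulfate proteoglycans that share basement membranes with type IV collagen, 0 were higher and 2 were lower, and the median log2 ratio was -0.32. Lamb3, a chain of the laminin of epithelial attachment sites, was 2.04-fold lower (1.95 to 2.13), and Lamc3 was 3.08-fold lower (2.34 to 4.12) at 310 and 62 counts. Nid1, which links laminin to type IV collagen, stood at 109 and 182 CPM, a ratio of 1.67 (1.63 to 1.72), Lama1 at 82 and 94 counts with a ratio of 1.86 (1.37 to 2.53), and the most abundant, Lama5, at 877 and 599 CPM with a ratio of 0.683 (0.675 to 0.691). In the marker lists given above, 0 of 8 endothelial and 3 of 11 epithelial genes were listed as lower, with median log2 ratios of -0.59 and -0.56, and their part was not tested.

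The FACIT sum was close to equal, at a log2 ratio of -0.07, which became 0.04 under total-count scaling, 0.04 without Col12a1 and 0.50 with the epithelial list set to 0. By the 2-fold rule 1 of its 7 members was higher and 2 were lower. Col14a1, a FACIT of dermis, tendon and other mature connective tissue, had 8312 counts (81.4 CPM) without acupuncture and 11974 counts (190 CPM) with acupuncture. It was 2.34-fold higher (2.27 to 2.40) and was the only collagen gene with over 1000 combined counts to be listed as higher. Col12a1, its closest relative, found on type I fibrils under mechanical load, had 32111 and 17357 counts (315 and 276 CPM), a ratio of 0.877 (0.861 to 0.893). Col14a1 per count of Col12a1 went from 0.259 to 0.690, a quotient of 2.67 (2.58 to 2.76). Col16a1 had 26651 and 10408 counts (261 and 165 CPM) and was 1.58-fold lower (1.54 to 1.61).

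The remaining FACITs were low. Col20a1 had 1037 and 485 counts, a ratio of 0.759 (0.680 to 0.846). The type IX chains, which coat type II fibrils in cartilage, were all below 1, with Col9a3 at 310 and 132 counts and a ratio of 0.691 (0.559 to 0.850). Col9a2 had 26 and 5 counts and was 3.21-fold lower (1.21 to 10.7), and Col9a1 had 39 and 2 counts and was 12.02-fold lower (3.11 to 103). Both were listed as lower, on few counts. The exons of Col9a3 share 7.68% of their bases with Tcfl5 on the opposite strand, where reads counted without strand cannot be told apart. Exon bases shared with another gene were found for 11 members, and only for Col9a3 did they reach 5% with 1 gene. Col3a1 shares 2.53% with Gm47302 on the same strand. Col6a4 shares 1.72% with Gm36993 and 2.20% with Gm47575, both on the opposite strand.

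The sum of the other types was 1.23-fold lower (1.23 to 1.24), though higher, at a log2 ratio of 0.26 in place of -0.30, with the epithelial list set to 0. Without Col7a1 the log2 ratio of the sum was -0.09, and its share of all counts was 0.191% and 0.192%, so that direction depends on the scaling. By the 2-fold rule 2 of the 17 genes of this class were higher and 3 lower. Type VI collagen was the largest group among them, at 10.2% of collagen counts without acupuncture and 8.72% with it. Its sum was 1243 and 1192 CPM, a log2 ratio of -0.06, and its share of all counts was 0.12% and 0.1234%. The direction of the type VI sum thus depends on the scaling. Col6a1 and Col6a2, which lie next to each other on chromosome 10, had 60857 and 30750 counts and 39946 and 19317 counts. Per kilobase, Col6a1 stood at 145 and 119 CPM and Col6a2 at 99.1 and 77.7 CPM, with ratios of 0.820 (0.809 to 0.831) and 0.785 (0.771 to 0.798). Col6a3, the long alpha-3 chain of the molecule, whose cleaved end piece endotrophin is released in fat and tumours, had 25400 counts (24.6 CPM per kilobase) and 24277 counts (38.2 CPM per kilobase). Its ratio was 1.55 (1.52 to 1.58), opposite in direction to its partners. With the epithelial list set to 0, Col6a1 and Col6a2 also lay above 0 and Col6a3 passed 2-fold, but their balance is the same under any scaling. Among the alternative chains, which lie side by side on chromosome 9, Col6a6 had 374 and 365 counts with a ratio of 1.58 (1.37 to 1.83) and Col6a5 had 318 and 197 with a ratio of 1.01 (0.837 to 1.20). Col6a4 had 23 and 89 counts and was listed as higher at 6.28-fold (3.93 to 10.4). Skeletal muscle and adipocyte markers were higher in that library too, and whether they contribute was not tested.

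Col7a1, the anchoring fibril collagen that ties squamous epithelial basement membrane to the stroma, differed most in CPM among the genes that were lower. It had 81414 counts (798 CPM) without acupuncture and 24810 counts (394 CPM) with acupuncture, 2.02-fold lower (1.99 to 2.05). That is at the limit of the rule, and the gene falls short of 2-fold at log2 ratios of -0.92 under total counts, -0.99 under upper quartile factors, -0.91 with the most abundant genes left out of the totals and -0.46 with the epithelial list set to 0. Its share of collagen counts went from 6.53% to 2.88%. Its start window, with matches marked as above, lies at chr9:108953336-108953635 (plus strand) on GRCm38.p6 and is shown because this gene had the lowest ratio among the 23 members with at least 1000 combined counts.
Col7a1: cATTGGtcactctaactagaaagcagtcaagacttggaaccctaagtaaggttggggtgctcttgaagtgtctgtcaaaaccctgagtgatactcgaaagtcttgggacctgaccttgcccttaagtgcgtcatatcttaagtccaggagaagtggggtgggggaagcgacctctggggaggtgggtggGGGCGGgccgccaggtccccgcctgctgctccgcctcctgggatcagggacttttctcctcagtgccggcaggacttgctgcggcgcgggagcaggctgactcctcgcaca
This window had 58.7% G and C, with 1 match each to the CCAAT box and the GC box. Col17a1, the transmembrane collagen of hemidesmosomes that acts at the same junction, had only 113 and 53 counts, a ratio of 0.761 (0.538 to 1.06). The part of the epithelial markers, of which 3 of 11 were listed as lower, was not tested.

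The multiplexins, basement membrane collagens with long sugar chains, had ratios below 1, and above 1 with the epithelial list set to 0. Col18a1, whose end piece endostatin restrains vessel growth, had 50755 and 27064 counts, a ratio of 0.865 (0.852 to 0.878), and Col15a1 had 7777 and 3924, a ratio of 0.819 (0.788 to 0.851). Their balance was near even between libraries, with a quotient of 0.946 (0.908 to 0.986). The network-forming Col8a1, a collagen of vessel walls and activated stroma, had 14003 and 9640 counts with a ratio of 1.12 (1.09 to 1.15), and Col8a2 had 62 and 47 with a ratio of 1.23 (0.824 to 1.83).

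Transmembrane and remaining collagens were rare. Col13a1, a membrane collagen of cell adhesion sites, had 226 counts (2.21 CPM) without acupuncture and 16 counts (0.254 CPM) with acupuncture, 8.71-fold lower (5.25 to 15.5). Col25a1, a membrane collagen known from nerve and muscle, had 27 and 0 counts. With the library at 0 set to the floor of 3 counts its level was 5.55-fold lower, and the exact counting interval, which also covers the error of the 27 counts, allows a difference as small as 4.21-fold. Col23a1 had 416 and 279 counts, a ratio of 1.09 (0.932 to 1.27). Col26a1 had 4 and 17 counts, and its 6.90-fold higher ratio had an interval of 2.25 to 28.2. Col28a1, found in peripheral nerve, had 1412 and 511 counts and was 1.70-fold lower (1.54 to 1.89). The Schwann cell markers, led by Pmp22 and Mbp, had 3 of 7 listed as higher and no gene lower, with 106 and 139 CPM summed, and their part was not tested.

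The genes that make and finish collagen had ratios on both sides of 1, with 11 log2 ratios above 0 and 23 below. Of 34 genes measured of 35 for hydroxylation, folding, export, propeptide cleavage and crosslinking, none was listed as higher and 1 as lower, with a median log2 ratio of -0.13 and a sum 1.21-fold lower (1.20 to 1.21). P4ha2, a catalytic subunit of the prolyl hydroxylase that makes the helix stable, had 108 and 44.8 CPM and was 2.41-fold lower (2.31 to 2.51). P4ha1, the other main catalytic subunit, was 1.87-fold lower (1.83 to 1.92), and P4hb, their common beta subunit, had 1194 and 851 CPM at a ratio of 0.713 (0.706 to 0.720). Among list genes with at least 100 combined counts, the highest ratios were those of the crosslinking transglutaminase Tgm2 at 1.41 (1.39 to 1.43) and the propeptide-cleaving protease Tll1 at 1.34 (1.06 to 1.69).

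Of 10 collagen receptors, 1 was higher and 0 were lower, and the median log2 ratio was -0.17. Itga11, the integrin chain by which fibroblasts grip fibrillar collagen, had 207 and 527 counts and was 4.13-fold higher (3.51 to 4.88). The collagen-activated kinase of epithelium, Ddr1, was 1.75-fold lower (1.66 to 1.84), while its mesenchymal relative Ddr2 had a ratio of 1.08 (1.06 to 1.10). Itga10, a collagen-binding integrin chain known from cartilage, had 639 and 232 counts with a ratio of 0.589 (0.505 to 0.686), and Itgb1, the common beta chain, had a ratio of 0.801 (0.792 to 0.809).

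Of 17 measured genes for proteins that sit on fibrils, 4 were listed as higher and none as lower, with a median log2 ratio of 0.72, whereas the log2 ratio of their summed counts was -0.23, opposite in sign. The small proteoglycans Aspn and Podn, which bind type I collagen, were 4.33-fold (4.06 to 4.62) and 3.14-fold (2.88 to 3.44) higher. Fn1, the fibronectin gene and the most abundant of the list, was 1.63-fold lower (1.62 to 1.63). It made up 5575 and 3429 of the 8847 and 7562 CPM summed over the list, in which 14 log2 ratios lay above 0 and 3 below. Tenascin C, Tnc, had a ratio of 0.823 (0.811 to 0.835). Of 10 proteases that cleave collagen, 1 was higher and 3 were lower, with a median of -0.36. The collagenases Mmp8, of neutrophils, and Mmp13 were 10.6-fold (7.25 to 16.1) and 2.59-fold (2.49 to 2.70) lower. Ctsk, a lysosomal collagenase, was 2.06-fold higher (1.98 to 2.14), while Mmp1a had 91 and 90 counts with a ratio of 1.60 (1.19 to 2.17) and Ctsb, the most abundant, had a ratio of 0.890 (0.882 to 0.897).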

How the data were processed

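RNA was extracted from tumour tissue with a column kit and libraries were made with a SMARTer messenger RNA kit, per the labels' protocols. The authors deposited raw whole-number counts per gene symbol, 1 column per library. The submitters' processing notes name the builds GRCm39 and mm39. Aligner, counter and strand setting: not given in the sources used here. Library sizes were scaled with edgeR 4.0.16 (R 4.3.3) TMM factors of 0.966 and 1.04, computed on the 18687 genes whose counts summed to 20 or more. Ratios divide the acupuncture library by the other, with exact Clopper-Pearson 95% intervals (for quotients of ratios, normal intervals on the log scale). Log2 ratios carry a prior count of 2. A library at 0 was set to a floor of 3 counts. With 1 library per group, these bounds reflect the counting error of reads and nothing else. Reads carry no molecular identifiers, so the bounds may be too narrow. Levels per kilobase use the GENCODE M21 (GRCm38) transcript with the longest coding part, found for 41 of 41 members. All members are named. From each pathway list, the 2 highest and 2 lowest ratios among genes with at least 100 combined counts and the most abundant gene are named, and from each marker list the 2 most abundant. The cartilage matrix genes of the cartilage and bone list are named as well. Members and lists were chosen with earlier results of these data known. Groups of 1 library allow no test. The calculation was tested on simulated counts with counting error only and changes placed in genes with at least 100 combined counts. That check does not cover variation between animals or changes in low genes. Alternatives used DESeq2 1.42.0 size factors, total counts, upper quartiles and other limits. Calculations used Python 3.11.15 with scipy 1.17.1, pandas 2.3.3 and numpy 2.4.6, and plots matplotlib 3.10.9.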

Additional observations from a re-analysis of the deposited data

How the results depend on the processing

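Scaling multiplies every CPM ratio by the same factor (log2 ratios with a prior count move less where counts are low), so chain ratios and shares of collagen counts are unaffected, but directions near 0 are not. The number of collagen genes higher with acupuncture was 4 and became 8 with the epithelial list at a median of 0, 7 with a 1.5-fold limit and 2 with a 4-fold limit. The number lower was 5 and became 3 with the epithelial list at 0, 2 with a combined count minimum of 100, 8 with a 1.5-fold limit and 3 with a 4-fold limit. The median log2 ratio of -0.19 became 0.372 with the epithelial list at 0, and the log2 ratio of summed counts was 0.163. For the fibrillar class the log2 ratio of summed counts was 0.473 under total counts and also without the most abundant genes in the totals, 0.396 under upper quartile factors, 0.933 with the epithelial list at 0 and 0.118 without Col3a1. For the basement membrane class these were -0.253, -0.252, -0.330 and 0.207, and -0.490 without Col4a1. For the FACITs they were 0.037 under both kinds of totals, -0.041 under upper quartile factors and 0.497 with the epithelial list at 0, and 0.037 without Col12a1. For the other types they were -0.203, -0.202, -0.280 and 0.257, and -0.093 without Col7a1. Smaller changes were seen under other alternatives. The number higher was 3 with a combined count minimum of 100 and with the deeper library thinned. The number lower was 4 under total counts, upper quartile factors and totals without the most abundant genes, and 6 with no interval required. The median log2 ratio stayed between -0.199 and -0.088 under these alternatives. DESeq2 size factors changed no call or sign of the 41 genes. With the deeper library thinned, Col2a1 was listed as lower, and Col25a1 and Col26a1 were under the count minimum. The cause of these changes beyond the construction of each alternative was not tested. Depth limits the 18 genes with under 1000 combined counts. No paired analysis was possible because each group has 1 library.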

Other observations

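Col19a1, a FACIT, had 11 and 2 counts, below the minimum like Col10a1 and Col22a1. Collagen genes that are neighbours in the RefSeq annotation did not always have similar ratios. Col6a1 and Col6a2 differed by 0.06 in log2 ratio and Col4a1 and Col4a2 by 0.32. Col3a1 and Col5a2, neighbours on chromosome 1, differed by 0.50, Col4a5 and Col4a6 on the X chromosome by 0.80, Col4a3 and Col4a4 by 0.75, Col6a5 and Col6a6 by 0.65, and Col6a4 and Col6a5 by 2.52.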
